A study of Homo sapiens with 26 samples.

Results

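TXNIP, ARRDC2, ARRDC3, ARRDC4, MLXIP and TXN were followed through every library of an arsenite experiment in HCT116, a human colorectal carcinoma cell line. The genes were chosen by name as RNA readouts of the transcription factor MondoA and of the redox state of the cell, and make up 6 of the 63086 genes in the count files. TXNIP and the ARRDC genes encode alpha-arrestins, MLXIP encodes MondoA, and TXN encodes thioredoxin. The study asked how phosphorylation of the disordered linkers of IGF2BP1, a cytoplasmic RNA-binding protein, affects its condensates with RNA and the RNAs it acts on. Cells were studied with and without stress. The HCT116 line used (Tet-OsTIR1) was first made to lack IGF2BP2 and IGF2BP3 by CRISPR from a sorted single cell, and an mCherry-IGF2BP1 transgene driven by the hPGK promoter was then added with a lentivirus.

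4 transgenes were compared. WT is the unchanged protein, and S181E carries glutamate in place of the serine phosphorylated in linker 1. Y396E carries glutamate in place of a tyrosine of linker 2. The study saw this tyrosine phosphorylated by Src kinase in vitro, but found no phosphorylated linker 2 peptide in cells. RQ carries glutamine in place of the arginines of the RGG motif of linker 1. Each population was sorted through a narrow mCherry gate and is not a single clone, but each transgene was carried by 1 population, so that the effect of a substitution and of its population cannot be told apart. The IGF2BP2 and IGF2BP3 deletions are shared by all 4. Every population was kept in PBS (control) or exposed to 500 µM sodium arsenite for 2 hours, with 3 dishes per group plated and grown independently, which gives 24 libraries. The labels list a further library of HCT116 without a transgene for each treatment. These parental libraries have no replicates and enter no test. Their titles name only HCT116, and the study describes its control cells as nonengineered. They may therefore differ from the 4 populations by the IGF2BP2 and IGF2BP3 deletions as well as by the transgene. The RNA was poly(A)-selected from bulk lysate, so that less of an RNA per cell and fewer cells with that RNA cannot be told apart.

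MondoA is a basic helix-loop-helix leucine zipper factor that pairs with MLX, responds to glucose 6-phosphate and binds paired E-boxes called carbohydrate response elements. TXNIP and ARRDC4 are its best known target genes, and both proteins limit glucose uptake. TXNIP also binds reduced thioredoxin, the small dithiol protein that returns oxidized proteins to their thiol form and is itself recycled by thioredoxin reductase. Alpha-arrestins act as adaptors that bring ubiquitin ligases of the NEDD4 type to membrane proteins. Arsenite reacts with vicinal thiols and places cells under oxidative and proteotoxic stress.

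The promoter stretches of TXNIP, ARRDC4 and ARRDC2 in which a searched motif was found are shown first. They come from the RefSeq promoter set on GRCh38.p14, in which each window reaches from 250 bases before to 50 bases after a start site. All 6 members matched, with 9 windows. Both strands were searched for a paired element of CACGNG, any 5 bases and CACGNG again, for the E-box CACGTG, and for the antioxidant response element core TGACNNNGC. Capitals mark the fixed letters of the motif found, and each stretch reads in the direction of its gene.
TXNIP, chr1:145996636-145996682, minus strand: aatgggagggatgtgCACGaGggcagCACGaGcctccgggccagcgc
ARRDC4, chr15:97960478-97960513, plus strand: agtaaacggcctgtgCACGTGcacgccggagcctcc
ARRDC2, chr19:18001041-18001079, plus strand: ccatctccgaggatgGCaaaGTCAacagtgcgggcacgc

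The paired element lay 88 to 72 bases upstream of the TXNIP start and occurred in 20 of the 35116 windows of the same length (0.057%). The E-box of ARRDC4 lay 210 to 205 bases upstream, and 7.26% of all windows hold that motif. The antioxidant response element core of ARRDC2 was on the opposite strand, 68 to 60 bases upstream, and is found in 13.3% of all windows. None of the 3 motifs occurred in the windows of TXN, MLXIP or ARRDC3, nor in the window of the second start listed for TXNIP, ARRDC2 and ARRDC3. Since the E-box and the antioxidant response element core are common in all windows, their matches are not read as traits of ARRDC4 and ARRDC2. These matches describe the letters in the windows and were not tested as binding sites.

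The 26 libraries held between 22508145 and 50834401 counts. Protein-coding genes held 89.47% to 91.72% of the counts in the WT and RQ controls and 94.66% to 95.91% in the S181E and Y396E controls. They held 93.2% in the parental control and 97.01% to 98.27% in the arsenite libraries. This share thus differed along the groups compared, and why was not tested. Epithelial markers were present in every library, with EPCAM at 305 to 486 CPM, the counts scaled to the protein-coding total of each library, and KRT8, a simple epithelial keratin, at 812 to 2360 CPM. PTPRC, a blood marker, never exceeded 1 count, PECAM1 of endothelium 6 counts and ALB of hepatocytes 9 counts, while the collagen gene COL1A1 stood at 6.33 to 11.4 CPM. After arsenite 4 of the 5 epithelial markers were called higher in each population. Of all genes tested, 65.3% to 72.9% were called after arsenite, and 49% to 50.9% of those calls were higher. In control, KRT8 was higher than in WT by 0.36 (S181E) and 0.42 (Y396E) on the log2 scale. CDH1 (-0.46 and -0.42) and EPCAM (-0.29 and -0.28) were lower there. Replicate 3 of the arsenite-treated Y396E population stood apart, with counts in 13897 genes where the other 23 transgene libraries each had at least 20850, and member results that rest on that group, and calls of listed genes that depend on it, are also given without it. No 2 libraries held identical values.

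TXNIP, the thioredoxin-interacting alpha-arrestin, had no count in any of the 26 libraries. It was listed at 0 in WT, S181E, Y396E and RQ, with and without arsenite, and in both parental libraries. TXNIP RNA is known to be present in most cultured human cell lines. A total of 0 among 861122363 counts allows a level of up to 0.00348 CPM, here relative to all counts, over the libraries together, and 0.059 to 0.133 CPM within single libraries, where the limit is set at 3 counts and covers counting error only. The limit holds for the cells only if TXNIP reads could be counted, which was not tested. Among 20044 protein-coding genes, 3344 had no count in all 26 libraries.

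The TXNIP gene (ENSG00000265972.6, hg38 chromosome 1, 145992435 to 145996579, minus strand) has 8 merged exons with 3192 bases of exon. No other annotated gene overlaps its exons on either strand. All 2400 windows of 100 bases taken along its exons, the read length of the libraries, had a single exact match in the hg38 sequences searched. Copies with mismatches, which the study's alignment allowed, were not searched, so the search cannot decide how reads from TXNIP would map. Genes around it were counted. LIX1L, centred 50.9 kb from the TXNIP start on the lower side, had 16137 counts over the 26 libraries, and POLR3GL, a subunit of RNA polymerase III 24.8 kb to the lower side, had 15381. HJV, the hemojuvelin gene 30.5 kb to the other side, had 0 counts. NBPF10 at 108.2 kb had 515 counts. Why TXNIP was listed at 0 was not tested, and no fold change or test is given for it.

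**Figure D1:**
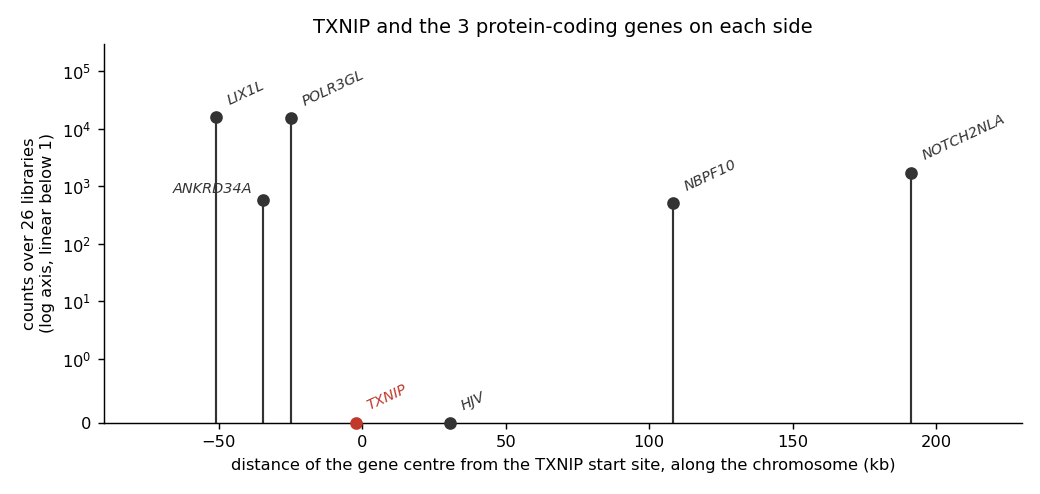
Summed counts over the 26 libraries (vertical axis, logarithmic above 1 and linear below) against the distance of the centre of each gene from the TXNIP start (horizontal axis, kb). TXNIP and HJV lie at 0, whereas LIX1L and POLR3GL reach 16137 and 15381 counts.

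The other 5 members were all expressed. Compared per length, as CPM divided by the length in kb (FPKM) and averaged over the 24 transgene libraries, TXN was the most abundant with 694 FPKM, which placed it at percentile 99.4 of 12958 tested protein-coding genes. ARRDC2 followed at 15.2 FPKM (percentile 71.6) and MLXIP at 7.85 FPKM (percentile 57). ARRDC3 with 4.71 FPKM and ARRDC4 with 1.54 FPKM were the least abundant, at percentiles 45.5 and 25.3. Of these 5, ARRDC4 alone missed the study's filter of over 10 CPM in at least 12 of 24 libraries, which 9099 genes passed, and it was tested in a wider set of 12958 genes.

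**Figure D2:**
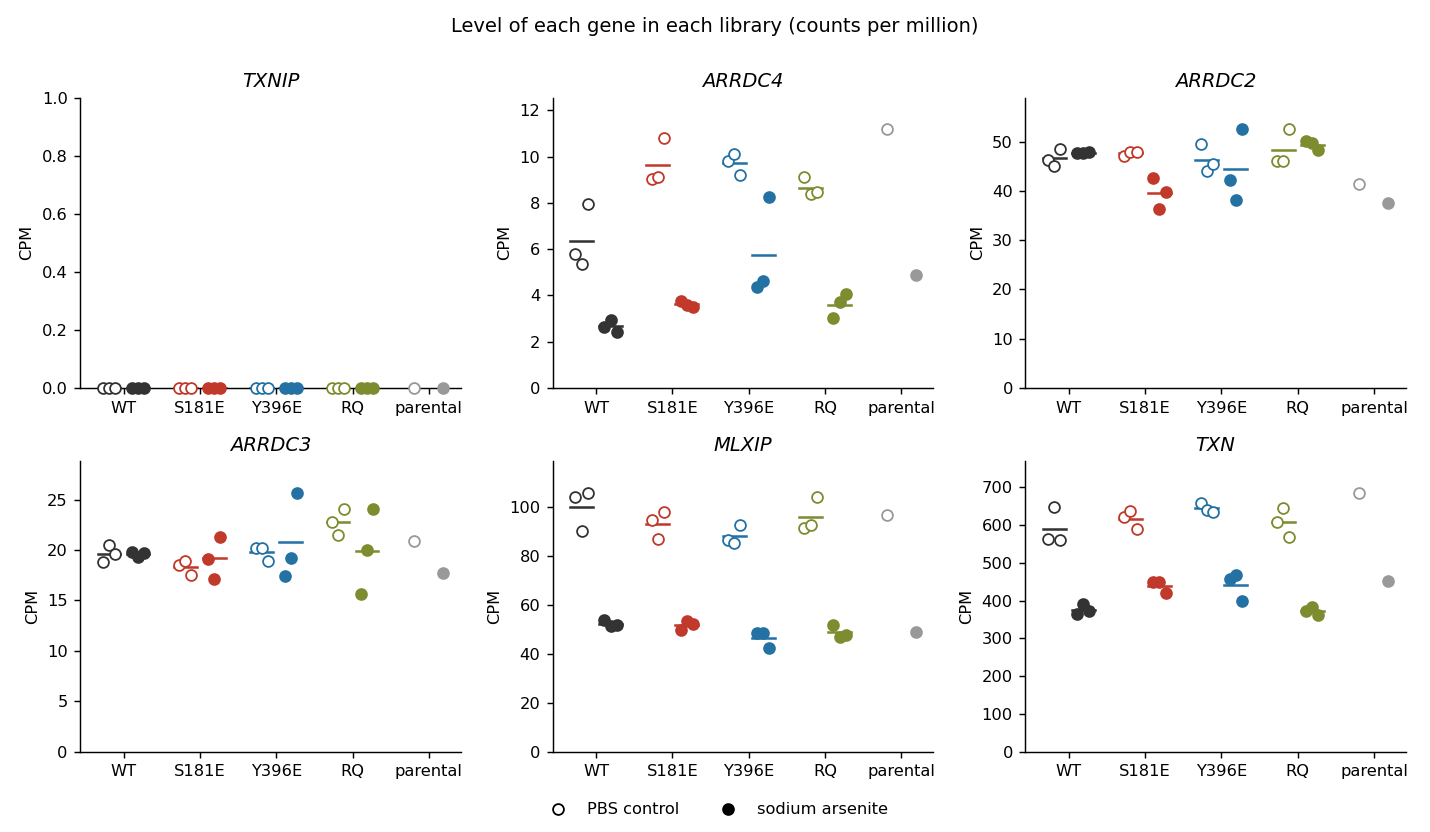
CPM of each member (vertical axes, linear) in each library, with open points for PBS control, filled points for arsenite, a horizontal line for the group mean, and columns for WT, S181E, Y396E, RQ and the parental cells. TXN, MLXIP and ARRDC4 are lower after arsenite in every population, ARRDC2 and ARRDC3 change little, and TXNIP lies at 0 throughout.

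The first comparison asked whether arsenite changed the members within each population. MLXIP, TXN and ARRDC4 fell in all 4 populations, by 1.80 to 1.97 fold, 1.39 to 1.62 fold and 1.68 to 2.68 fold, respectively. ARRDC2 fell by 1.21 fold in S181E and was not called elsewhere, and ARRDC3 was not called in any population. A gene was called at an adjusted p under 0.05 with a fold change over 1.2, from the quasi-likelihood test of edgeR, with p adjusted by Benjamini-Hochberg over all genes tested. No member rose.

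These calls stand against a large background. Of the 9099 genes, arsenite changed 72.2% (WT), 65.3% (S181E), 65.8% (Y396E) and 72.9% (RQ), and the share called lower was 35.9%, 33.3%, 32.9% and 35.8%, respectively. Among the 4 members in that set (TXN, MLXIP, ARRDC2 and ARRDC3), 2 were called lower in each of WT, Y396E and RQ and 3 in S181E, which with so few genes cannot be read as different from the background. In the wider set used for ARRDC4, 61.1%, 55.1%, 57.8% and 61.8% of genes were called, of which those lower made up 30.2%, 27.9%, 28.5% and 29.8% of the genes tested. The median log2 change of all genes lay between -0.03 and -0.008. How often the libraries of 2 groups did not overlap was not counted over all genes. Where a member showed no overlap, this is given as description only.

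MLXIP (ENSG00000175727.15, hg38 chromosome 12, 122078756 to 122147344, plus strand) encodes MondoA itself. The WT control libraries held 104, 90.1 and 106 CPM, and the WT arsenite libraries 53.7, 51.5 and 51.6 CPM. In S181E the control libraries stood at 94.7, 86.8 and 98.1 CPM and the arsenite libraries at 49.9, 53.4 and 52.4 CPM. Every arsenite library was thus below every control library by a wide margin. Y396E gave 86.4, 85.5 and 92.9 CPM in control and 48.5, 48.6 and 42.5 CPM after arsenite. RQ gave 91.4, 92.9 and 104 CPM in control and 51.9, 46.7 and 47.9 CPM after arsenite. Neither population had libraries that overlapped between treatments.

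On the log2 scale MLXIP fell by 0.94 ± 0.07 (SE, n = 3 per group) in WT, with an adjusted p of 4.79e-12 by edgeR. The fall was 0.85 in S181E, 0.92 in Y396E and 0.98 in RQ, and 95% intervals of the 4 changes overlapped, with that of WT spanning -1.08 to -0.80 and that of S181E -0.99 to -0.70. Among the 5 tested members, MLXIP had the narrowest range of change across populations. The parental cells went from 96.6 CPM in control to 48.8 CPM with arsenite, a log2 change of -0.99 with no replicate check. Without Y396E arsenite replicate 3 the change of MLXIP in Y396E was -0.85.

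ARRDC4 (ENSG00000140450.9, hg38 chromosome 15, 97960703 to 97973833, plus strand), an alpha-arrestin and the second well known MondoA target, was rare, with 68 to 399 counts in the transgene libraries. WT held 5.8, 5.34 and 7.95 CPM in control and 2.63, 2.95 and 2.4 CPM after arsenite. S181E held 9.01, 9.1 and 10.8 CPM in control and 3.77, 3.57 and 3.49 CPM after arsenite. The 3 arsenite libraries of S181E lay close together and far below their controls. RQ went from 9.1, 8.4 and 8.48 CPM to 3.02, 3.73 and 4.06 CPM. Y396E started at 9.81, 10.1 and 9.19 CPM and reached 4.34, 4.63 and 8.25 CPM. The highest of these, replicate 3, is the library that stood apart, and it still lay below all Y396E controls.

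The log2 change of ARRDC4 was -1.26 ± 0.20 (SE, n = 3) in WT (95% interval -1.67 to -0.84, adjusted p = 4.81e-06 by edgeR). It was -1.42 ± 0.19 in S181E (adjusted p = 6.67e-07 by edgeR) and -1.25 ± 0.19 in RQ (adjusted p = 3.32e-06 by edgeR). In Y396E it was -0.75 ± 0.18 (95% interval -1.13 to -0.37, adjusted p = 0.000962 by edgeR), and -1.10 ± 0.14 without replicate 3 of the arsenite group. The parental pair showed 11.2 CPM and 4.88 CPM, a log2 change of -1.2.

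TXN (ENSG00000136810.13, hg38 chromosome 9, 110243810 to 110256507, minus strand), cytosolic thioredoxin, was the most abundant member in each group. Control libraries of WT held 563, 648 and 560 CPM and arsenite libraries 364, 391 and 371 CPM. In RQ the values were 608, 644 and 569 CPM in control and 372, 384 and 362 CPM after arsenite. Libraries of WT and RQ overlapped within each treatment. S181E went from 620, 636 and 589 CPM to 449, 450 and 420 CPM. Y396E went from 657, 640 and 635 CPM to 456, 467 and 398 CPM. In all 4 populations the arsenite libraries lay below the control libraries without overlap, although those of S181E and Y396E remained above those of WT.

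TXN fell by 0.65 on the log2 scale in WT (SE 0.06, n = 3, adjusted p = 4.26e-10 by edgeR) and by 0.70 in RQ (adjusted p = 1.04e-10 by edgeR). The fall was 0.48 in S181E (95% interval -0.61 to -0.36, adjusted p = 1.03e-07 by edgeR) and 0.55 in Y396E (-0.67 to -0.42, adjusted p = 1.25e-08 by edgeR), and it was 0.46 in Y396E without replicate 3 of the arsenite group. Parental cells held 686 CPM of TXN in control and 451 CPM with arsenite, a log2 change of -0.61.

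ARRDC2 (ENSG00000105643.11, hg38 chromosome 19, 18001132 to 18014102, plus strand) encodes an alpha-arrestin, and 1 annotated gene overlaps it on the opposite strand, which the strand-aware counting keeps apart. WT held 46.3, 45.0 and 48.4 CPM in control and 47.6, 47.6 and 47.9 CPM after arsenite. RQ held 46, 46.1 and 52.6 CPM in control and 50.2, 49.7 and 48.2 CPM after arsenite. The treatments overlapped in both. S181E held 47.1, 47.8 and 47.9 CPM in control and 42.7, 36.4 and 39.8 CPM after arsenite, the only population in which all ARRDC2 arsenite libraries lay below the controls. Y396E held 49.5, 44.1 and 45.4 CPM in control and 42.3, 38.2 and 52.5 CPM after arsenite, and the last of these, replicate 3, was the highest of the group.

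The log2 change of ARRDC2 was -0.27 ± 0.08 in S181E (95% interval -0.44 to -0.09, adjusted p = 0.00612 by edgeR). It lies at the edge of the fold threshold, and the call was lost in 16 of 32 alternatives, among them DESeq2 (-0.25, adjusted p = 0.00577) and the fits without S181E arsenite replicate 2 (-0.19, adjusted p = 0.0619) or replicate 3 (-0.25, adjusted p = 0.0234). Leaving out any single arsenite library of WT, Y396E or RQ also gave -0.25 and no call. The other changes of ARRDC2 were 0.03 in WT (-0.14 to 0.21), -0.07 in Y396E (-0.24 to 0.11) and 0.03 in RQ (-0.14 to 0.20). Without Y396E arsenite replicate 3 the change of ARRDC2 in Y396E was -0.19 (adjusted p = 0.00987 by edgeR), under the fold threshold. The parental pair held 41.3 CPM and 37.6 CPM, a log2 change of -0.14.

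ARRDC3 (ENSG00000113369.9, hg38 chromosome 5, 91368631 to 91383317, minus strand), an alpha-arrestin known for the turnover of beta-adrenergic receptors and integrin beta 4, was not called after arsenite in any population. WT held 18.8, 20.5 and 19.6 CPM in control and 19.8, 19.3 and 19.7 CPM after arsenite, and S181E held 18.5, 18.9 and 17.5 CPM against 19.1, 17.1 and 21.3 CPM. Y396E held 20.2, 20.2 and 18.9 CPM in control and 17.4, 19.2 and 25.7 CPM after arsenite. The treatments overlapped in each. RQ held 22.8, 21.5 and 24.1 CPM in control and 15.6, 20.0 and 24.1 CPM after arsenite, where the highest arsenite library was level with the highest control library. The 95% intervals of the log2 change were -0.26 to 0.26 (WT), -0.19 to 0.34 (S181E), -0.18 to 0.33 (Y396E) and -0.45 to 0.07 (RQ), so that a change of ARRDC3 beyond these limits was not seen. Without arsenite replicate 3 the ARRDC3 change in Y396E was -0.09. Without RQ arsenite replicate 3 ARRDC3 was called lower in RQ, at -0.34 (adjusted p = 0.0214 by edgeR). In the parental pair it stood at 20.9 CPM and 17.7 CPM, a log2 change of -0.24.

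**Figure D3:**
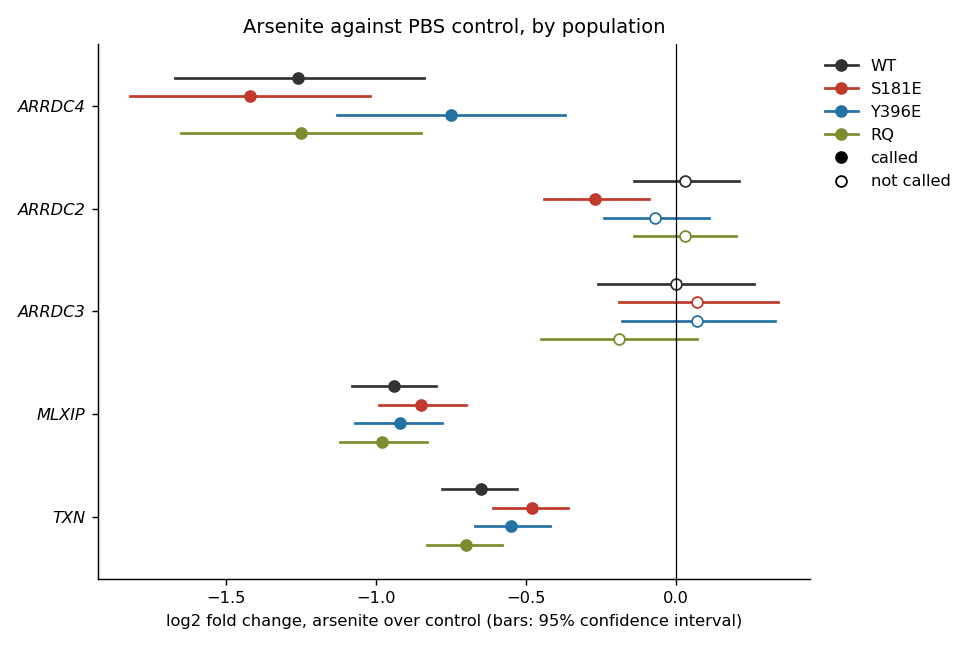
Log2 fold change of each tested member after arsenite (horizontal axis) in each population, with 95% intervals from the edgeR fit and filled points for calls. MLXIP, TXN and ARRDC4 lie to the left of 0 in all 4 populations, with ARRDC4 at -0.75 in Y396E and -1.42 in S181E at its extremes.

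The order of the group means repeated these changes. All 4 control groups of MLXIP, from 100 ± 8.79 CPM (SD, n = 3) in WT to 88.3 ± 4.04 CPM in Y396E, stood above the highest arsenite group at 52.3 ± 1.24 CPM in WT, and neighbours within a treatment differed by less than the larger SD of the pair, except S181E and RQ after arsenite at 51.9 ± 1.77 and 48.8 ± 2.68 CPM. For TXN the lowest control group was WT at 590 ± 49.8 CPM and the highest arsenite group Y396E at 440 ± 37.3 CPM. S181E at 439 ± 17 CPM was level with the latter, and WT at 375 ± 14 CPM and RQ at 373 ± 11.4 CPM followed. ARRDC4 ran from 9.7 ± 0.466 CPM in Y396E control, 9.63 ± 0.996 CPM in S181E control and 8.66 ± 0.386 CPM in RQ control to 2.66 ± 0.279 CPM in WT arsenite. WT control of ARRDC4 at 6.36 ± 1.39 CPM and Y396E arsenite at 5.74 ± 2.18 CPM were neighbours in that order and overlapped. ARRDC3 group means lay between 18.3 and 22.8 CPM, and those of ARRDC2 between 39.6 and 49.4 CPM.

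The second comparison asked whether the members differed between a mutant population and WT in unstressed cells. ARRDC4 was higher in S181E by 1.52 fold and in Y396E by 1.53 fold. TXN, MLXIP, ARRDC2 and ARRDC3 were called in none of the 3 mutant populations, and of all 5 tested members 1 in S181E, 3 in Y396E and 1 in RQ had an unadjusted p under 0.05, while DESeq2 called 1, 1 and 0. Among all 9099 genes 31.1% were called in S181E, 28.6% in Y396E and 1.43% in RQ, and in the wider set with ARRDC4 the shares were 25.6%, 23.6% and 0.98%. All 3 mutant populations were set against the same WT libraries, so the 3 contrasts are not independent.

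ARRDC4 stood at 5.34 to 7.95 CPM in the WT control libraries, at 9.01 to 10.8 CPM in S181E, at 9.19 to 10.1 CPM in Y396E and at 8.4 to 9.1 CPM in RQ. Each mutant control library was above each WT control library. The single parental control library held 11.2 CPM, above all of these, and was not tested. The log2 differences from WT were 0.60 ± 0.19 in S181E (95% interval 0.21 to 0.98, adjusted p = 0.0135 by edgeR), 0.61 ± 0.19 in Y396E (0.22 to 0.99, adjusted p = 0.014 by edgeR) and 0.44 ± 0.19 in RQ (0.06 to 0.83, adjusted p = 0.333 by edgeR). For RQ the contrast called 0 of the 5 tested members in edgeR and 0 in DESeq2, with 1 at an unadjusted p under 0.05. The ARRDC4 call in S181E was lost without WT control replicate 1 (0.53, adjusted p = 0.0609), WT control replicate 2 (0.49, adjusted p = 0.081) or S181E control replicate 3 (0.51, adjusted p = 0.0715). That in Y396E was lost without WT control replicate 1 (0.54, adjusted p = 0.0623) or 2 (0.50, adjusted p = 0.0833). Without Y396E arsenite replicate 3, which enters the shared spread, ARRDC4 in RQ was called as well (0.44, adjusted p = 0.0281 by edgeR).

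TXN differed from WT in control by 0.06 in S181E, 0.13 in Y396E and 0.04 in RQ on the log2 scale, with adjusted p of 0.441, 0.0929 and 0.844 by edgeR. MLXIP differed by -0.18 in Y396E (95% interval -0.32 to -0.04, adjusted p = 0.0299 by edgeR), which is under the fold threshold, and by -0.10 in S181E and -0.06 in RQ. ARRDC2 differed by at most 0.05. The ARRDC3 control libraries of RQ, at 21.5 to 24.1 CPM, all lay above those of WT at 18.8 to 20.5 CPM, yet the log2 difference of 0.22 had a 95% interval from -0.04 to 0.48 and an adjusted p of 0.474 by edgeR.

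After arsenite the same contrasts gave a different set of calls. ARRDC4 was higher than in WT by 2.16 fold in Y396E, and ARRDC2 was lower in S181E. TXN was above WT in every S181E and Y396E library but stayed under the fold threshold. The share of all genes called was 13.7% in S181E, 21.7% in Y396E and 1.52% in RQ, and 12.1%, 20.5% and 1.03% in the wider set. The WT arsenite libraries are shared by the 3 contrasts.

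ARRDC4 in Y396E, at 4.34 to 8.25 CPM, exceeded WT, at 2.4 to 2.95 CPM, by 1.11 ± 0.20 on the log2 scale (95% interval 0.70 to 1.52, adjusted p = 0.000157 by edgeR), and by 0.75 ± 0.15 (adjusted p = 0.000231 by edgeR) without Y396E arsenite replicate 3. S181E at 3.49 to 3.77 CPM and RQ at 3.02 to 4.06 CPM were also above each WT library, with differences of 0.43 ± 0.21 (95% interval 0.01 to 0.86, adjusted p = 0.162 by edgeR) and 0.45 ± 0.21 (0.02 to 0.87, adjusted p = 0.496 by edgeR). Leaving out Y396E arsenite replicate 3 brought the ARRDC4 difference in S181E past the test (0.43, adjusted p = 0.0293 by edgeR). No ARRDC4 library of a mutant population overlapped those of WT in either treatment, although only 3 of the 6 contrasts were called. The 3 contrasts of a treatment share their WT libraries, and how often other genes showed no overlap was not counted. The lack of overlap is therefore not read as a result about ARRDC4. The single parental arsenite library held 4.88 CPM of ARRDC4, also above each WT library, and was not tested.

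TXN lay at 420 to 450 CPM in S181E and at 398 to 467 CPM in Y396E after arsenite, against 364 to 391 CPM in WT and 362 to 384 CPM in RQ. The log2 difference from WT was 0.23 ± 0.06 in S181E (95% interval 0.10 to 0.35, adjusted p = 0.00718 by edgeR) and 0.23 ± 0.06 in Y396E (0.11 to 0.36, adjusted p = 0.0047 by edgeR), whereas it was -0.01 in RQ (adjusted p = 0.984 by edgeR). Both differences of TXN are smaller than the fold threshold. The one in Y396E passed it without arsenite replicate 3 of that population (0.30, adjusted p = 0.000168 by edgeR), and the one in S181E passed it when libraries were scaled by their totals only (0.27, adjusted p = 0.000152 by edgeR).

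ARRDC2 in arsenite-treated S181E, at 36.4 to 42.7 CPM, lay below WT at 47.6 to 47.9 CPM, with a log2 difference of -0.27 ± 0.08 (95% interval -0.44 to -0.10, adjusted p = 0.0207 by edgeR). This call was lost in 8 of 32 alternatives, including DESeq2 (-0.26, adjusted p = 0.0159) and the fits without S181E arsenite replicate 2 (-0.21, adjusted p = 0.12) or 3 (-0.27, adjusted p = 0.0512) and without WT arsenite replicate 2 (-0.27, adjusted p = 0.0501) or 3 (-0.27, adjusted p = 0.0549). ARRDC2 in RQ differed by 0.05 (adjusted p = 0.91 by edgeR) and in Y396E by -0.11 (adjusted p = 0.322 by edgeR), and the latter value was -0.25 (adjusted p = 0.00355 by edgeR) without replicate 3. MLXIP differed from WT by -0.01 in S181E, by -0.17 in Y396E (95% interval -0.31 to -0.03, adjusted p = 0.0609 by edgeR; -0.11 without replicate 3) and by -0.10 in RQ. ARRDC3 differed by -0.03, 0.08 and 0.03 in S181E, Y396E and RQ, and by -0.09 in Y396E without replicate 3. In RQ, 0 of the 5 tested members were called by edgeR or DESeq2, and 1 had an unadjusted p under 0.05.

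**Figure D4:**
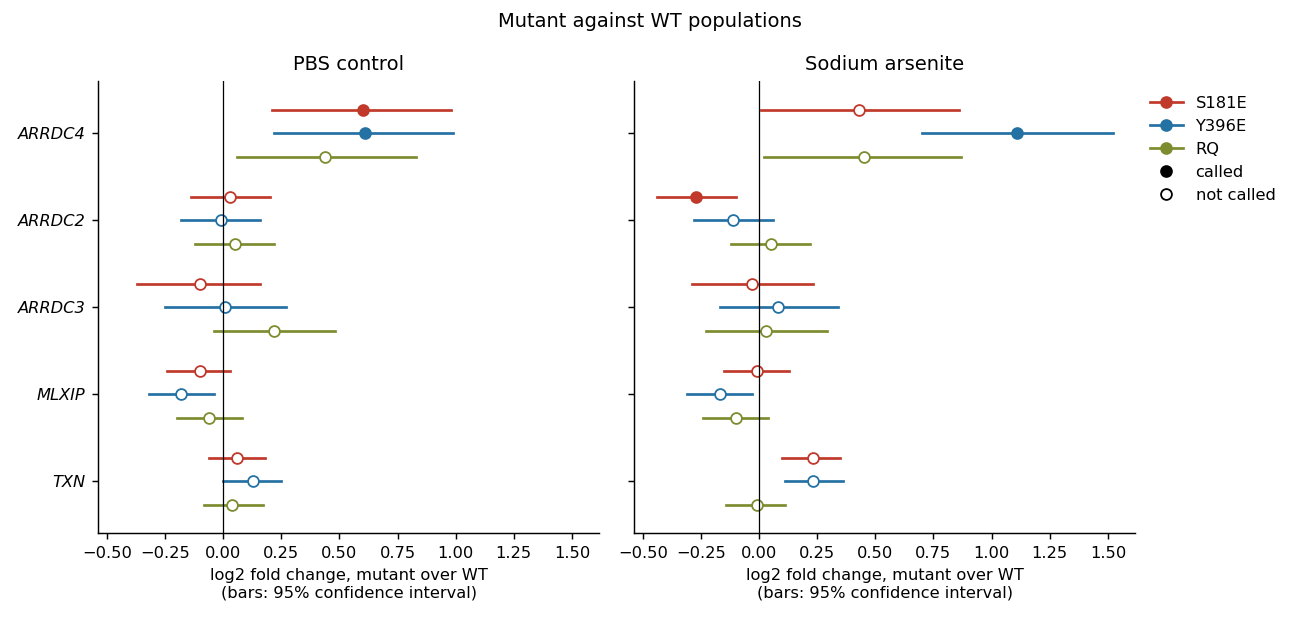
Log2 difference of each tested member between a mutant population and WT (horizontal axis) in control and in arsenite libraries, with 95% intervals from the edgeR fit and filled points for calls. ARRDC4 lies to the right of 0 in all 6 contrasts, from 0.43 to 1.11, and the other members lie between -0.27 and 0.23.

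Whether arsenite acted differently in a mutant population was asked by subtracting the change in WT from that in the mutant. None of the 5 tested members was called in S181E, Y396E or RQ by edgeR, nor by DESeq2, which gave no result for ARRDC4 in S181E. At an unadjusted p under 0.05 in edgeR there were 1, 0 and 0 members. Of all genes, 16.4% were called for S181E, 21.5% for Y396E and 0.22% for RQ, or 10.6%, 14% and 0.123% in the wider set. The 1 member was ARRDC2 in S181E, with a log2 difference of -0.30 ± 0.12 (95% interval -0.54 to -0.06, adjusted p = 0.0744 by edgeR). ARRDC2 was called there when libraries were scaled by their totals only (-0.41, adjusted p = 0.0282 by edgeR), when only the groups compared were fitted (-0.29, adjusted p = 0.00753 by edgeR), and without Y396E arsenite replicate 2 or 3. A block for the replicate number also brought this call.

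For ARRDC4 the arsenite change in Y396E was less negative than in WT by 0.50 (95% interval -0.06 to 1.06, adjusted p = 0.214 by edgeR), and by 0.15 without Y396E arsenite replicate 3. Its difference in S181E was -0.16 (-0.74 to 0.41) and in RQ 0.00 (-0.51 to 0.52), and a difference of ARRDC4 within these limits was not detectable here. TXN gave 0.17 in S181E (-0.01 to 0.34, adjusted p = 0.168 by edgeR), 0.10 in Y396E (-0.07 to 0.28) and -0.05 in RQ. MLXIP differed from the WT change by 0.09, 0.02 and -0.04, and ARRDC3 by 0.08, 0.08 and -0.19, in S181E, Y396E and RQ. Without Y396E arsenite replicate 3 the Y396E differences were 0.17 for TXN, 0.07 for MLXIP, -0.25 for ARRDC2 (adjusted p = 0.0352 by edgeR, under the fold threshold) and -0.11 for ARRDC3.

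The glutamate populations were also set against each other. No member was called between Y396E and S181E in control or in arsenite by edgeR or by DESeq2, which gave no result for ARRDC4 in arsenite. EdgeR called 0% of all genes in both. The number of members at an unadjusted p under 0.05 in edgeR was 0 in control and 2 in arsenite. In control ARRDC4 differed by 0.01 on the log2 scale (95% interval -0.37 to 0.38). In arsenite ARRDC4 was at 4.34 to 8.25 CPM in Y396E and at 3.49 to 3.77 CPM in S181E, a log2 difference of 0.67 ± 0.19 (95% interval 0.27 to 1.08, adjusted p = 0.277 by edgeR), which became 0.33 (adjusted p = 0.981 by edgeR) without Y396E arsenite replicate 3 and 0.82 (adjusted p = 0.0308 by edgeR) without its replicate 2. The other was MLXIP, at 42.5 to 48.6 CPM in Y396E and 49.9 to 53.4 CPM in S181E after arsenite, with a difference of -0.16 (adjusted p = 0.307 by edgeR), or -0.10 without Y396E arsenite replicate 3.

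Other genes of the pathway were then read from lists of its parts. The counts below stand against the shares of all genes called after arsenite, 72.2% (WT), 65.3% (S181E), 65.8% (Y396E) and 72.9% (RQ), of which 35.9%, 33.3%, 32.9% and 35.8% of the genes tested were lower, and nothing is read from a list of this size beyond its named genes. In the network of MLX and MAX, the partners and relatives of MondoA, 8 of 9 genes were tested after arsenite. In WT 3 rose and 4 fell, in S181E 2 and 2, in Y396E 3 and 3, and in RQ 3 and 5, with list medians of -0.29, -0.14, -0.14 and -0.29 on the log2 scale. Without arsenite replicate 3 the Y396E count was again 3 and 3. MLXIPL, which encodes the MondoA paralogue ChREBP, rose where MLXIP fell. It went from 26.4 ± 1.51 to 48.1 ± 1.31 CPM (SD, n = 3) in WT, a log2 change of 0.86 ± 0.08 (adjusted p = 7.02e-10 by edgeR), and rose by 1.03 in S181E, 0.91 in Y396E and 0.83 in RQ. MGA, a MAX-binding repressor, rose by 0.76 in WT, and MXI1, another MAX partner, fell by 0.61 in WT and 0.66 in RQ. MXD1, a MAX partner that was below the filter and was tested in the wider set, went from 2.51 ± 0.64 to 11.4 ± 1.93 CPM in WT, and rose on the log2 scale by 2.17 (WT), 1.27 (S181E), 1.23 (Y396E) and 2.83 (RQ). MLX, the obligate partner of MondoA, changed by -0.23 in WT and was called in RQ (-0.28, adjusted p = 0.000232 by edgeR), a call at the edge of the fold threshold that was lost in 13 of 32 alternatives (values of MLX from -0.32 to -0.11).

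Both MLXIPL and MXD4, a MAX dimerization protein, were lower in S181E and Y396E than in WT. MLXIPL stood at 16.1 ± 0.724 CPM in S181E control and 16.9 ± 0.822 CPM in Y396E control against 26.4 ± 1.51 CPM in WT, log2 differences of -0.72 and -0.65. With arsenite the MLXIPL differences were -0.54 and -0.60, the latter -0.53 without Y396E arsenite replicate 3. MXD4 differed from WT by -0.79 in S181E and -0.64 in Y396E in control. In RQ the differences of the 8 tested genes from WT lay between -0.09 and 0.24 in control and between -0.08 and 0.14 in arsenite.

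Among other genes reported as MondoA or ChREBP targets, 6 of 7 were tested. PKLR, the liver and red cell pyruvate kinase, reached at most 5 counts in a library. After arsenite 4 rose and 1 fell in WT, 3 and 1 in S181E, 2 and 1 in Y396E, and 4 and 1 in RQ, with medians of 0.39, 0.14, 0.10 and 0.56. These counts are to be set against the same shares of all genes, and the Y396E count was again 2 and 1 without arsenite replicate 3. RGS16, a regulator of G protein signalling, rose by 1.58, 1.74, 1.76 and 1.52 in WT, S181E, Y396E and RQ, and HK2, hexokinase 2, by 1.39, 0.84, 1.06 and 1.42. PFKFB3, which makes the glycolytic activator fructose 2,6-bisphosphate, was the gene that fell, by 0.37 (WT), 0.55 (S181E), 0.50 (Y396E) and 0.34 (RQ). BHLHE40, a transcriptional repressor, was called in no population after arsenite. In control, HK2 was higher than WT in S181E (0.62) and Y396E (0.42), LDHA, lactate dehydrogenase A, was higher (0.38 and 0.40), and BHLHE40 was lower (-0.44 and -0.31). RGS16 was the target called in RQ, at 0.52 in control (adjusted p = 0.0449 by edgeR) and 0.46 in arsenite (adjusted p = 0.0288 by edgeR). The RGS16 call in control was lost in 12 of 20 alternatives (adjusted p up to 0.184), and that in arsenite in 3 of 20 (adjusted p up to 0.152).

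The thioredoxin system was tested for 12 of 13 listed genes besides TXN. After arsenite 2 rose and 5 fell in WT, 1 and 4 in S181E, 2 and 6 in Y396E, and 2 and 5 in RQ, with medians of -0.05, -0.12, -0.23 and -0.03. Of the 6 that fell in Y396E, 3 were no longer called without arsenite replicate 3 of that group, namely TXNRD3 (-0.32, then -0.17), PRDX5 (-0.31, then -0.24) and TXNDC17 (-0.30, then -0.25), which left 2 higher and 3 lower where 64.3% of all genes were called and 32.4% were lower. TXNRD1, the cytosolic reductase that recycles thioredoxin, fell with TXN. Its level went from 444 ± 9.63 to 281 ± 3.08 CPM in the WT cells (log2 change -0.66), from 690 ± 29.6 to 377 ± 15.5 CPM in Y396E (-0.87) and from 501 ± 14.5 to 309 ± 12 CPM in RQ (-0.70), and S181E, which started from 723 ± 21.4 CPM, changed by -0.87. TXN2, the mitochondrial thioredoxin, fell by 0.58, 0.48, 0.37 and 0.57 in WT, S181E, Y396E and RQ. PRDX4, the peroxiredoxin of the endoplasmic reticulum, fell by 0.87 in WT and 0.88 in RQ, and by 0.47 in S181E and 0.39 in Y396E. Only TXNL1, a thioredoxin-like protein of the proteasome, rose in all 4 populations, by 0.67, 0.47, 0.40 and 0.72. TXNDC17, a thioredoxin-related protein, fell in WT, S181E and RQ by 0.52, 0.35 and 0.58, while PRDX1, PRDX2, PRDX3 and PRDX6 were called in no population. SRXN1, the sulfiredoxin that repairs overoxidized peroxiredoxins, was tested in the wider set and fell by 0.68, 0.82, 0.88 and 0.99 in WT, S181E, Y396E and RQ.

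Against WT in control, TXNRD1 was higher by 0.70 in S181E (adjusted p = 2.59e-12 by edgeR) and 0.63 in Y396E (adjusted p = 1.63e-11 by edgeR), and PRDX1, a cytosolic peroxiredoxin, by 0.37 and 0.35. PRDX4 was lower, by -0.32 and -0.33 on the log2 scale. After arsenite TXNRD1 remained higher, by 0.49 and 0.42, and was the one called gene of the list in both populations. Without Y396E arsenite replicate 3 the Y396E difference of TXNRD1 was 0.45, and PRDX1 was called as well (0.28, adjusted p = 1.33e-05 by edgeR). In RQ the 12 differences from WT lay between -0.09 and 0.17 in control and between -0.08 and 0.14 in arsenite.

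The ubiquitin ligases of the NEDD4 type and their adaptors, the partners of alpha-arrestins, were all tested (9 of 9). In WT 3 rose and 4 fell after arsenite, in S181E 2 and 3, in Y396E 2 and 5, and in RQ 4 and 3. Without arsenite replicate 3 the Y396E count was 1 and 4, since ITCH, a ligase called at -0.29, changed by -0.09 (adjusted p = 0.266 by edgeR) and NEDD4 by 0.25 (adjusted p = 0.0586 by edgeR in the wider set). With 64.3% of all genes called in that fit, and the shares given above in the others, no reading of the list as a whole is drawn. NEDD4 itself rose by 0.81 (WT), 0.27 (S181E), 0.34 (Y396E) and 0.76 (RQ). The NEDD4 call in S181E lies at the edge of the fold threshold and was lost in 5 of 20 alternatives (values from 0.21 to 0.32). SMURF2, a ligase of this type known from TGF-beta signalling, fell by 0.60, 0.73, 0.77 and 0.62, and NDFIP2, a membrane adaptor that activates these ligases, by 0.73, 0.52, 0.50 and 0.75. In control NEDD4L was higher than WT by 0.57 in S181E and 0.55 in Y396E, while WWP1 was lower, by -0.49 and -0.51 on the log2 scale.

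Of the remaining arrestins, 3 of 4 were tested, and ARRDC5 did not exceed 3 counts in any library. ARRDC1, an alpha-arrestin of the plasma membrane, and ARRB1, a beta-arrestin, were called in no population after arsenite, and ARRB2, the other beta-arrestin, was called lower in Y396E (-0.33, adjusted p = 0.000944 by edgeR). That ARRB2 call rested on the library that stood apart, since its arsenite libraries held 92.8, 95.7 and 65 CPM, and without replicate 3 the change was -0.15 (adjusted p = 0.00376 by edgeR), under the fold threshold. In control ARRB2 was higher than WT by 0.55 in S181E and 0.50 in Y396E, whereas ARRDC1 was lower, by -0.34 and -0.29. Proteins that alpha-arrestins are known to carry were represented by ITGB4 and SLC2A1, the 2 of 4 that passed the filter. ITGB4, integrin beta 4, rose after arsenite by 1.60, 1.68, 1.66 and 1.69 in WT, S181E, Y396E and RQ. SLC2A1, the glucose transporter GLUT1 whose uptake TXNIP limits, fell by 0.40 in WT and 0.43 in RQ. The SLC2A1 changes in S181E and Y396E were -0.17 and -0.02 and were not called. It was higher than in WT in S181E and Y396E, by 0.60 and 0.56 in control and by 0.83 and 0.93 in arsenite.

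**Figure D5:**
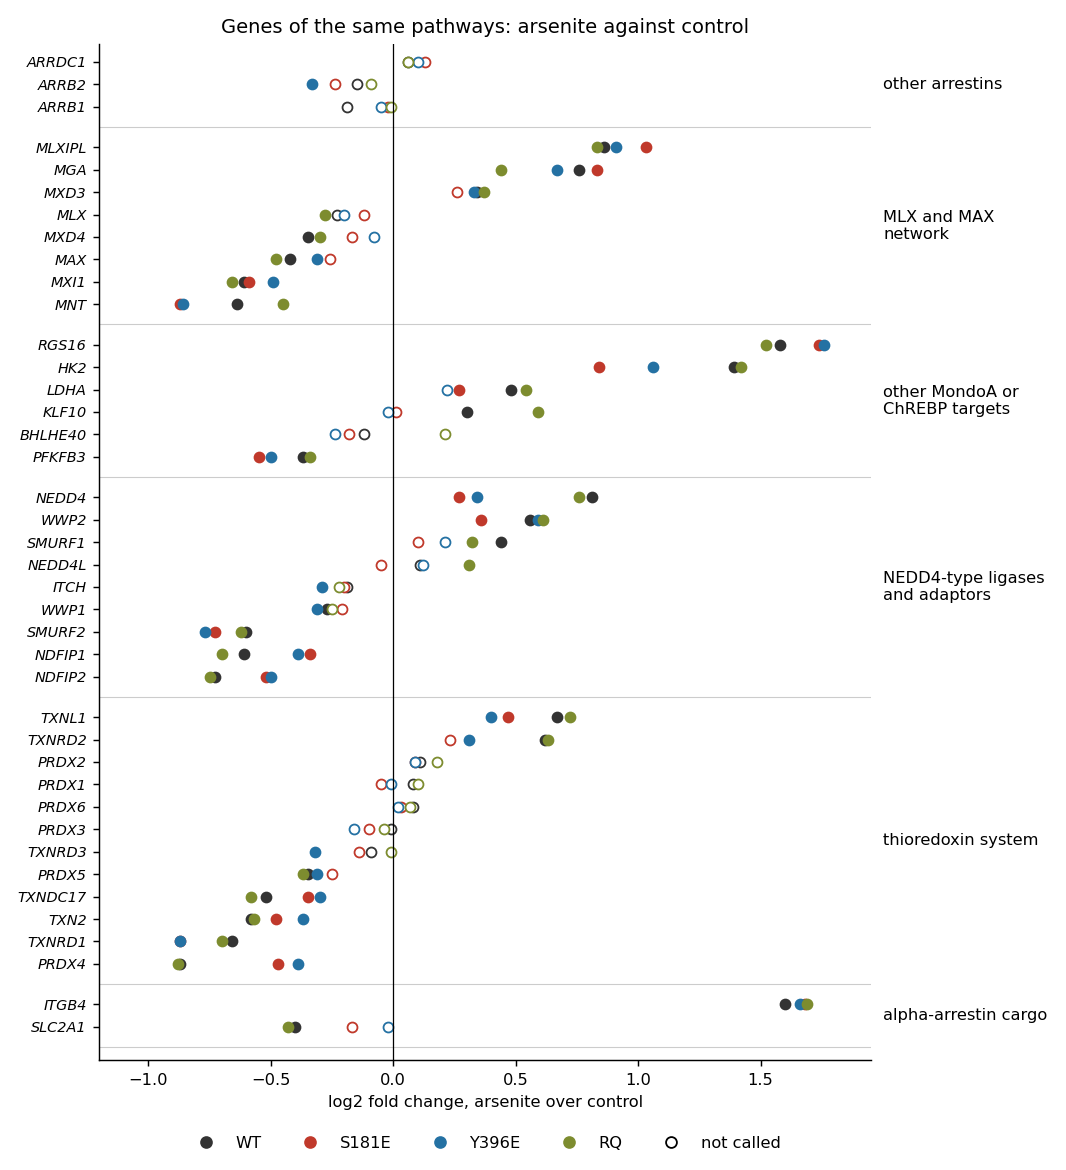
Log2 change after arsenite (horizontal axis) of the listed pathway genes in WT, S181E, Y396E and RQ, grouped by list, with filled points for calls. Among these genes, which all passed the main filter, ITGB4 and RGS16 lie farthest to the right in all 4 populations, and TXNRD1, with -0.66 to -0.87, is among the genes to the left of 0.

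Finally, the genes whose group means followed a member most closely were listed as a description. Over the 8 groups and 12958 genes, MAPKAPK3 (root mean square difference 0.0294 on the centred log2 scale), SLIRP (0.0295) and SSNA1 (0.0301) were nearest to TXN, whose own group means span 0.82. MAT2A (0.0333), TMX3 (0.0368) and LARP6 (0.0442) were nearest to ARRDC3, whose span of 0.29 leaves little pattern to match. REEP1 (0.166), RBMS2 (0.181) and S100A3 (0.182) were nearest to ARRDC4, with a span of 1.85. TXNIP, at 0 throughout, has no pattern to compare.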

How the data were processed

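Per the labels and the study's methods, the authors aligned directional single reads of 100 bases to hg38 with STAR (2.7.11b) and assigned them to GENCODE 46 genes with featureCounts of Subread (2.0.6), counting with strand. The deposited values are raw counts per gene, with no normalization. Gene IDs, without version, were matched to GENCODE 44 symbols (62541 of 63086, 99.1%).

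The members and the gene lists were chosen with earlier results of these data known. Besides the members, the text names listed genes past the test with the largest change (up to 3 a list and comparison) and the 3 genes closest to TXN, ARRDC3 and ARRDC4. PRDX2, PRDX3, PRDX6, MLX, ARRB1, ARRDC5, PKLR, the neighbours of TXNIP and some comparisons of other listed genes were added after their values were seen.

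Counts of protein-coding genes over 10 CPM in at least 12 of 24 libraries (9099) were fitted with edgeR 4.0.16 (R 4.3.3, limma 3.58.1) with TMM factors from 0.866 to 1.084, 1 mean per group and 16 residual degrees of freedom, and tested by quasi-likelihood with Benjamini-Hochberg adjustment. ARRDC4 was tested with the same fit on the 12958 genes kept by filterByExpr. CPM are relative to TMM-scaled protein-coding totals. The fit was first tested on simulated counts. Intervals are at 95%. Alternatives were DESeq2 1.42.0, its size factors, no TMM scaling, wider filters, genes of every type, a fit restricted to the groups in question, a block for the replicate number, and leaving out each library. P-values measure the spread between dishes of 1 population. Protein sequences were not used here.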

Additional observations from a re-analysis of the deposited data

Results flagged for a closer look

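None of the 6 members met a criterion for a closer look. Among the listed pathway genes, 13 results did, because the difference between the arsenite change of a mutant population and that of WT, on the log2 scale, passed the edgeR test of that difference. Of all 9099 genes, 16.4% (S181E) and 21.5% (Y396E) were called in the same test. The number of listed genes called is therefore not read as a trait of the lists. Values are given as mutant minus WT, with adjusted p by edgeR.

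In S181E the difference was -0.56 for HK2 (adjusted p = 0.00699), -0.29 for KLF10 (0.0119), -0.54 for NEDD4 (0.0293) and -0.39 for TXNRD2 (0.0146), so that their change was less positive than in WT. For PRDX4 it was 0.39 (adjusted p = 0.00828) and for NDFIP1 0.26 (0.0317), where the change was less negative than in WT.

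In Y396E the difference was -0.33 for KLF10 (adjusted p = 0.00461), -0.48 for NEDD4 (0.0414), -0.28 for TXNL1 (0.00533) and -0.31 for TXNRD2 (0.0373), and it was 0.48 for PRDX4 (0.00168), 0.37 for SLC2A1 (0.0105) and 0.28 for MXD4 (0.0491). The calls of HK2, PRDX4, SLC2A1, KLF10 in Y396E and TXNRD2 in S181E held in all 32 alternatives. Those of MXD4 and NDFIP1 were lost in 25 and 16 of 32, those of NEDD4 in 5 (S181E) and 7 (Y396E) of the 20 that could be run for it, and those of TXNL1, TXNRD2 in Y396E and KLF10 in S181E in 4, 8 and 1 of 32. The cause of these losses was not tested.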

How the results depend on the processing

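Over 15 comparisons, 12 kept the number of called members among TXN, MLXIP, ARRDC2 and ARRDC3 within 1.5 times in all 8 settings and all 24 fits that left out a library. With so few members that limit lets a call be gained or lost. After arsenite the count ran from 2 to 3 in S181E, and from 2 to 3 in RQ when a library was left out. Of 75 member results 17 were called, 13 stayed called throughout, and 0 reversed. Of 175 called results of listed genes, 127 stayed called throughout and 0 reversed. For S181E against WT in arsenite the count of 1 became 0 with DESeq2, with its size factors and with no filter, and 0 to 1 when a library was left out (WT or S181E arsenite replicates 2 and 3). For Y396E against WT in arsenite the count of 0 ranged from 0 to 1, the latter without Y396E arsenite replicate 3. For the arsenite response of S181E minus that of WT the count of 0 became 1 with library totals only, with only the groups compared and with the replicate block, and 0 to 1 with a library left out.

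Scaling by library totals alone moved the median log2 change of all genes to 0.144 in WT and 0.155 in RQ after arsenite, and to 0.177 and 0.142 for S181E and Y396E against WT in control. The share of calls that were higher went from 50.3% to 61.4%, 50.9% to 61.8%, 50.4% to 83.5% and 50.5% to 80.9% in these. It went from 70% to 38.3% for RQ against WT in control and from 38.7% to 55.6% and 89.9% to 77.7% for S181E and RQ in arsenite. For the responses of S181E and Y396E it went from 42.6% to 13% and 48.1% to 18.4%. Fitting only the groups compared changed the genes called from 130 to 71 (RQ, control), 1972 to 1122 (Y396E, arsenite), 138 to 250 (RQ, arsenite) and 1954 to 948 (Y396E response). The RQ response went from 20 to 31 with DESeq2 and to 12 with library totals, and Y396E against S181E in arsenite from 0 to 9 with DESeq2. The cause of these changes was not tested.

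Same-numbered libraries of different groups had deviations correlated between -0.05 and 0.53 (84 pairs, mean 0.09), and 23 of 24 libraries lay closest to their own number. This is a pattern in the data that the design does not describe. Since the study names no pairing, the main fit did not use the numbers. Any effect shared by libraries of the same number is thus part of its spread. The replicate block moved the genes called for the S181E response from 1491 to 1652, and ARRDC2 was then called there (-0.30, adjusted p = 0.046 by edgeR). With at most 399 counts in a library, ARRDC4 is the tested member whose precision depth limits most.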
